A study of Mus musculus with 12 samples.

Results

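The 6 genes described here, of the cytoskeleton, of cell guidance and of surface signalling, were followed in cultured mouse blood progenitors, with and without tumour necrosis factor alpha (TNF). They were Sema6d and Sema4d, which encode semaphorins, Dpysl3 and Dpysl2, which encode collapsin response mediator proteins, the fascin gene Fscn1, and Gpr25, which encodes a G protein-coupled receptor. These 6 of 18193 measured genes were carried by 17 of 45037 probe sets, taken as all probe sets that the platform annotation gives to exactly 1 of the 6 symbols. The genes were chosen by their signal with and without TNF on these same arrays. Sema6d, Dpysl3, Fscn1 and Gpr25 were picked because their signal was higher with TNF, and Sema4d and Dpysl2 were added for contrast. All differences between treated and untreated arrays for these 6 genes are therefore a description and carry no test.

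Semaphorins are secreted or membrane-bound guidance cues that signal through plexins, and through neuropilins or CD72 in some cells, and they steer axons as well as immune cells. Collapsin response mediator proteins are cytosolic phosphoproteins that act below semaphorin receptors and bind tubulin and actin. Fascin bundles actin filaments into filopodia, and its gene is known as a marker of mature dendritic cells. Gpr25 is a class A receptor whose closest relative is Gpr15.

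The cells were KSL cells, a marrow fraction enriched for stem and early progenitor cells and sorted for Kit and Sca-1 without lineage markers. They came from wild-type mice and from Fancc-/- mice, which lack a DNA repair gene of the Fanconi anaemia pathway, aged 2 to 4 months in both cases. The sources used here give neither strain nor allele. All cultures received stem cell factor (10 ng/ml), Flt3L (50 ng/ml), IL-11 (10 ng/ml) and IL-6 (20 ng/ml) with 10% serum for 24 h, and the treated ones also TNF at 10 ng/ml. Each of the 4 groups (genotype by treatment) had 3 arrays. Separate mice or cultures were not stated, so the spread between replicates may be partly technical.

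On every array Cd34 (at least 12.81) and Kit (at least 9.95) were well above the array's 25th percentile of probe sets, between 4.105 and 4.177 (log2). Granulocyte markers were bright too, with a mean over 10 genes of 10.57 to 11.16 on the untreated arrays. Fancc was not lower on the Fancc-/- arrays (8.73 to 9.16) than on the wild-type arrays (8.22 to 8.65), and whether its probe set lies in the disrupted part is not known here, so genotype is given as labelled. Xist read 5.06 to 5.47 on untreated wild-type replicates 1 and 2 and untreated Fancc-/- replicate 1 and at least 12.04 on the other arrays, while the Y-linked Eif2s3y read under 4.2 on treated wild-type replicate 3 and untreated Fancc-/- replicate 2. The other 7 arrays had both signals, so male and female RNA was not balanced over replicates. The arrays with low Xist were all untreated, and every treated array read at least 12.2, so sex was not balanced over treatment either. In such bulk samples a change in the number of cells of a type and a change in RNA per cell cannot be told apart.

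From the RefSeq promoter table (build GRCm38.p6), 7 windows of 4 of the 6 genes were searched: Sema6d (2), Sema4d (3), Fscn1 (1) and Gpr25 (1). The selection of these windows left out 1 chromosome, so a window of the 6 genes may be missing from the 7. It kept none of Dpysl3 or Dpysl2, and nothing is said here of their promoters. The 250 bases before the start are shown for the genes with the large TNF differences other than Dpysl3. Sema6d is shown at the first of its 2 starts only. The proximal sequences can thus be set side by side. Capitals mark the motif matches described below, and lower case the rest.
Fscn1: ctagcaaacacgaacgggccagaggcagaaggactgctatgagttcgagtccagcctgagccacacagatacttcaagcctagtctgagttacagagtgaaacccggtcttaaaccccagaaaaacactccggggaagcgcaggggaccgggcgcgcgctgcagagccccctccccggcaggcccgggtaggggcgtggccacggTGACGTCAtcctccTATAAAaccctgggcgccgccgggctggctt
Gpr25: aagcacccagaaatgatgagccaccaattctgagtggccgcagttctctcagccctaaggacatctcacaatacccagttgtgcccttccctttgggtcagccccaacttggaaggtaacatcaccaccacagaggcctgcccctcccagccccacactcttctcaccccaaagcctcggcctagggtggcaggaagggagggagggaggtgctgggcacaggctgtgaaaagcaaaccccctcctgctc
Sema6d: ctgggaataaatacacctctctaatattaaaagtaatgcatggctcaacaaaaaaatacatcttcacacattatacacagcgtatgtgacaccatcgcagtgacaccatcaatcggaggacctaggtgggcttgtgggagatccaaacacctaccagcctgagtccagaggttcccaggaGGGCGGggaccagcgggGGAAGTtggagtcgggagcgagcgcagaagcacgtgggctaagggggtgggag
The Fscn1 window lies at chr5:142960105-142960354 on the plus strand, the Gpr25 window at chr1:136260927-136261176 on the minus strand and the Sema6d window at chr2:124089719-124089968 on the plus strand.

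Both strands of each window were searched for 6 motifs, with overlapping matches kept. The cyclic AMP response element TGACGTCA was found in the Fscn1 window, from 45 to 38 bases before the start, and was present in 1.55% of all 32851 windows. The TATA box TATAAA followed it, from 31 to 26 bases before the start (12.4% of all windows). The Sema6d window had the GC box GGGCGG (32.7% of all windows) and the ETS core GGAAGT (19.7%), from 70 to 65 and from 53 to 48 bases before the start. No match to any of the 6 motifs was found in the Gpr25 window or in the other Sema6d window. The NF-kB consensus (3.9% of all windows) matched none of the 7, and the AP-1 element TGANTCA (6.75%) matched 1 Sema4d window. Of the other Sema4d windows, 1 had the GC box and 1 the ETS core. A match is a run of letters and no evidence of binding, and a window without one says nothing of the factor or of sequence further away.

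Sema6d encodes a transmembrane semaphorin that binds plexin-A1. Its brightest probe set read 5.81, 5.68 and 5.20 on the wild-type arrays without TNF and 9.06, 9.75 and 9.56 on those with TNF (log2 signal, on which 1 unit is a 2-fold difference). It read 5.37, 5.27 and 5.44 on the untreated Fancc-/- arrays and 9.67, 9.99 and 9.83 on the treated ones. The treated arrays of both genotypes lay far above all untreated ones, with 3.25 between the nearest values. The difference was 3.89 in wild type (14.8-fold, SE 0.19, 3 arrays per group) and 4.47 in Fancc-/- (22.2-fold, SE 0.19).

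Sema4d encodes CD100, a transmembrane semaphorin of leukocytes that binds plexin-B1 and CD72. It read 12.95, 13.01 and 12.95 on the wild-type arrays without TNF and 13.05, 13.16 and 13.12 with TNF. On the Fancc-/- arrays it read 12.99, 12.87 and 12.99 without TNF and 13.06, 13.18 and 13.15 with it. All 12 values lay between 12.87 and 13.18. The treated arrays lay above the untreated ones by as little as 0.04 at the nearest values. The difference was 0.14 (1.1-fold, SE 0.07) in wild type and 0.18 (1.13-fold, SE 0.07) in Fancc-/-.

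Dpysl3 encodes CRMP4. Its brightest probe set read 3.13, 3.16 and 3.20 on the wild-type arrays without TNF and 7.62, 8.78 and 8.02 on the treated ones. It read 3.31, 3.16 and 3.09 on the untreated Fancc-/- arrays and 7.40, 8.10 and 7.37 on the treated ones. All 6 untreated values lay below the 25th percentile of their array, where RMA compresses differences, and no treated value did. Treated replicate 2 was the highest in each genotype, and the spread was wider with TNF (SD 0.59 and 0.41) than without it (SD 0.03 and 0.11). The measured difference was 4.98 in wild type and 4.44 in Fancc-/- (SE 0.26 each). With the 25th percentile of the untreated arrays taken as a floor, this probe set read at least 16-fold higher with TNF in wild type. In Fancc-/- it read at least 11.1-fold higher. The other Dpysl3 probe sets differed far less, as given below, so this bound is not one for the gene.

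Dpysl2 encodes CRMP2, the best known member of the family, which binds tubulin dimers. It read 12.37, 12.73 and 12.73 on the wild-type arrays without TNF and 12.79, 12.99 and 13.03 with TNF. On the Fancc-/- arrays the values were 12.75, 12.75 and 12.72 without TNF and 13.00, 12.97 and 13.17 with it. Its treated and untreated arrays did not overlap, but the nearest values were 0.04 apart, and untreated wild-type replicate 1 was the lowest of all. The difference was 0.33 (1.26-fold, SE 0.11) in wild type, 0.21 without untreated replicate 1, and 0.31 (1.24-fold, SE 0.11) in Fancc-/-. Signals of different probe sets are not on 1 scale, so these values do not show which of the family members had more RNA.

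Fscn1 read 9.44, 7.70 and 8.16 on the wild-type arrays without TNF and 11.48, 12.04 and 12.11 on the treated ones. It read 7.31, 7.65 and 6.53 on the untreated Fancc-/- arrays and 11.64, 11.88 and 11.82 on the treated ones. Untreated wild-type replicate 1 was the highest untreated array (9.44, against at most 8.16 on the other 5) and still lay 2.04 below the lowest treated one. The treated arrays lay close together in both genotypes (SD 0.35 and 0.12), whereas the untreated ones were spread (SD 0.90 and 0.57). The difference was 3.44 in wild type (10.9-fold, SE 0.40) and 4.62 in Fancc-/- (24.6-fold, SE 0.40), and in wild type it was 3.95 without untreated replicate 1.

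Gpr25 read 6.93, 4.81 and 5.58 on the wild-type arrays without TNF and 10.09, 10.36 and 10.69 on the treated ones. It read 5.08, 4.71 and 5.26 on the untreated Fancc-/- arrays and 9.99, 10.46 and 10.05 on the treated ones. As for Fscn1, untreated wild-type replicate 1 was the highest untreated array, and the lowest treated array stood 3.06 above it. The difference was 4.60 in wild type (24.3-fold, SE 0.42) and 5.15 in Fancc-/- (35.4-fold, SE 0.42). Without untreated wild-type replicate 1 the wild-type difference was 5.18.

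Thus 4 of the 6 genes stood at least 2-fold higher with TNF in both genotypes, where 1.21% of all 18193 genes did (1.67% in wild type, 1.71% in Fancc-/- and 1.59% on average). On the brightest probe sets of all 6 genes the 6 treated arrays lay above the 6 untreated ones. This was the case for 3.89% of all genes (8.87% within wild type and 10.4% within Fancc-/-). For the 4 picked genes both counts follow from the choice, and nothing is read from them. The dimmer probe sets of Sema4d and Dpysl2, the genes added for contrast, overlapped in each genotype. The plot of signal by array shows both patterns, large steps for 4 genes and small ones for Sema4d and Dpysl2.

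**Figure D1:**
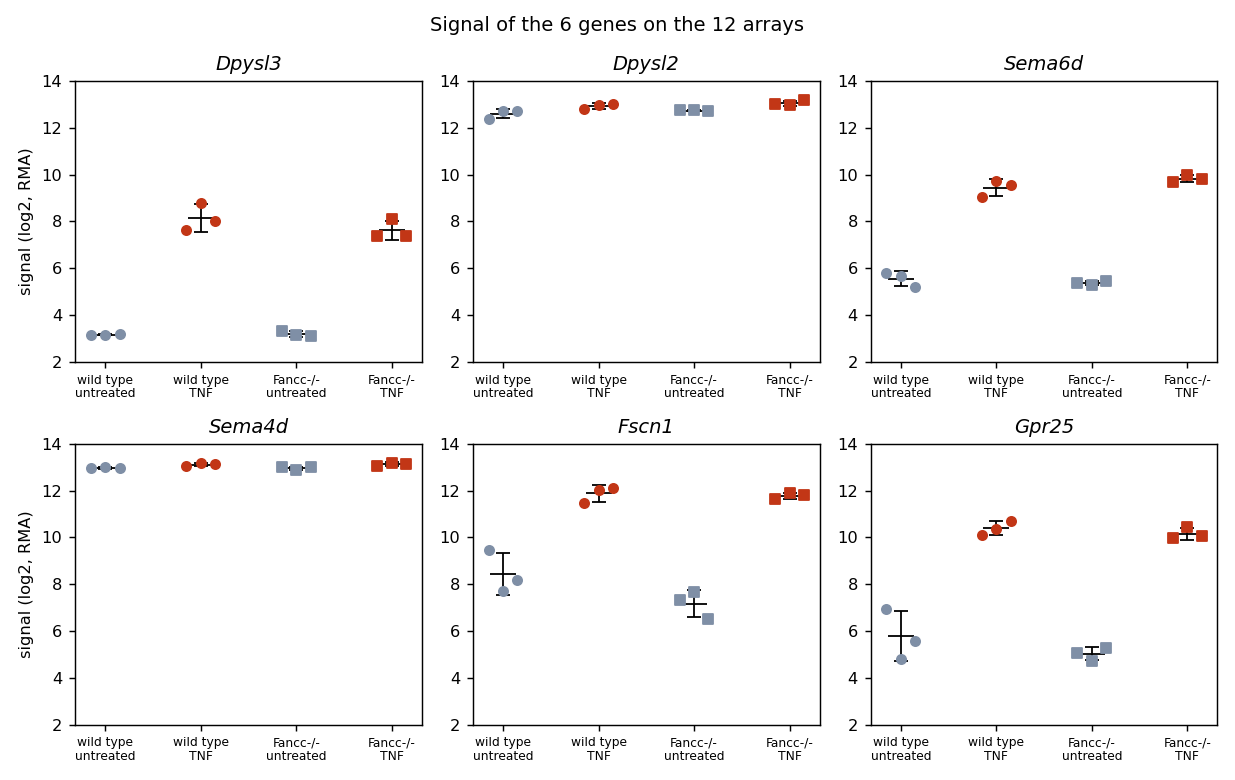
Log2 RMA signal (y axis) of the brightest probe set of each of the 6 genes on the 12 arrays, by genotype and treatment (x axis; grey-blue untreated, red TNF, circles wild type, squares Fancc-/-). Points are arrays and bars are the mean ± SD of 3 arrays; Sema6d, Dpysl3, Fscn1 and Gpr25 lie at least 2.04 higher with TNF than on any untreated array, while Sema4d and Dpysl2 lie above 12 throughout.

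Probe sets of the same gene did not move alike. Of the 17 probe sets, 6 were at least 2-fold higher with TNF averaged over genotype, against 1.1% of all 45037, again by the choice of genes. For Fscn1, a second probe set read 6.61, 6.02 and 5.92 on the untreated and 8.61, 9.53 and 9.58 on the treated wild-type arrays. On the Fancc-/- arrays the second Fscn1 probe set read 5.74, 5.94 and 5.79 without TNF and 8.52, 9.35 and 8.83 with it. The remaining Fscn1 probe sets differed by 0.31 (SE 0.10) and -0.05 (SE 0.07) averaged over genotype, at signals of 5.31 to 6.99. Sema6d had differences of 1.41 (SE 0.23), 0.87 (SE 0.17) and 0.04 (SE 0.08) on its dimmer probe sets, all of them below the 25th percentile on every untreated array. The other Dpysl3 probe sets differed by 0.30 (SE 0.09) and -0.05 (SE 0.07), the latter below the 25th percentile on all 12 arrays. The second Dpysl2 probe set differed by -0.03 (SE 0.12), and the dimmer Sema4d ones by 0.18 (SE 0.15) and 0.05 (SE 0.11). Averaging all probe sets of a gene gave wild-type differences of 1.72 for Dpysl3, 1.43 for Sema6d and 1.73 for Fscn1, far below those of the brightest probe sets. The sources used here do not say where these probe sets lie along the transcripts.

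**Figure D2:**
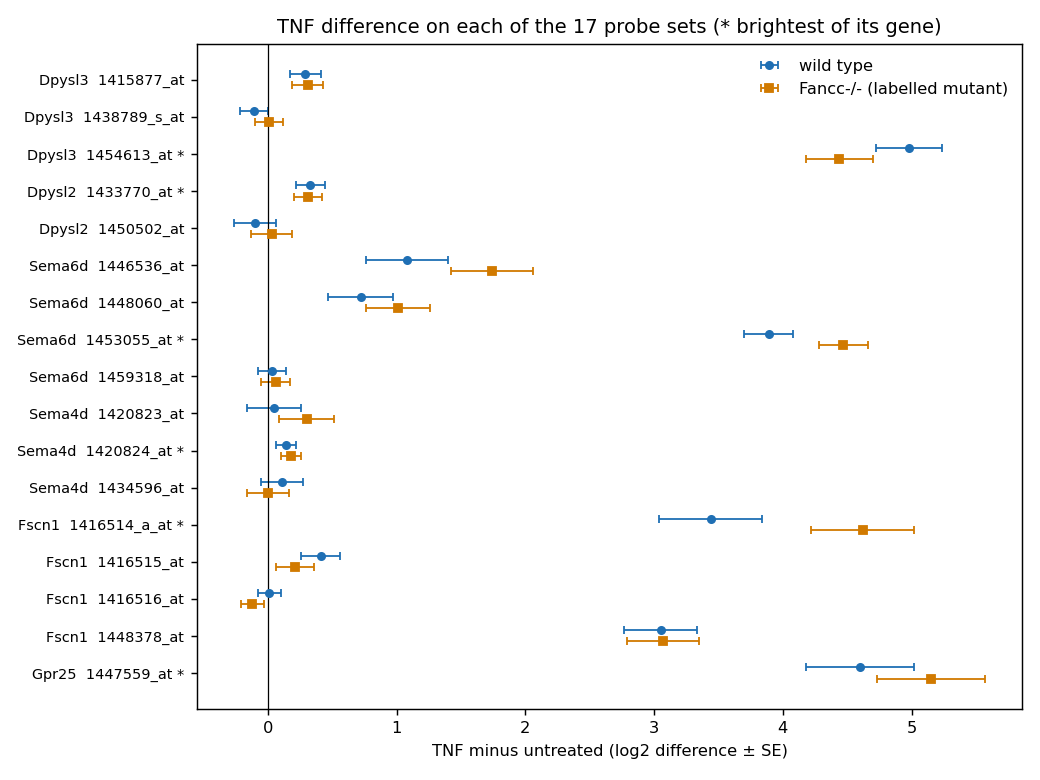
Difference between TNF-treated and untreated arrays (x axis, log2, ± SE, 3 arrays per group) on each of the 17 probe sets (y axis), in wild type (circles) and Fancc-/- (squares). The 6 probe sets at least 2-fold higher on average are 1 each of Dpysl3 and Gpr25 and 2 each of Sema6d and Fscn1, and the remaining Fscn1 probe sets differ by at most 0.41.

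Genotype did not enter the choice of the genes, and the average over treatment is orthogonal to the TNF contrasts that did. None of the 6 genes passed for genotype averaged over treatment (limma, Benjamini-Hochberg adjusted p under 0.05 over 18193 genes), where 4 genes or 0.022% of all did. At an unadjusted p under 0.05 there was 1 of the 6, against 7.39% of all genes. That gene was Fscn1, which differed by -0.68, Fancc-/- minus wild type (log2, 95% interval -1.31 to -0.05, limma adjusted p = 0.636). The difference was -0.43 without untreated wild-type replicate 1. The other differences, Fancc-/- minus wild type, were -0.49 for Gpr25 (-1.14 to 0.17), -0.25 for Dpysl3 (-0.66 to 0.16), 0.12 for Dpysl2 (-0.05 to 0.29), 0.09 for Sema6d (-0.21 to 0.38) and 0.00 for Sema4d (-0.11 to 0.11). No single probe set among the 17 passed either (0.0266% of 45037 did), and 2 had an unadjusted p under 0.05, against 6.3% of all probe sets.

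The TNF difference itself was compared between genotypes with an interaction term, which shares its arrays with the contrasts used for the choice. In limma 0 of the 6 genes and 0 of all genes (0%) passed, and at an unadjusted p under 0.05 there were 0 of the 6 and 2.9% of all. Fscn1 had the widest gap, 1.18 more in Fancc-/- than in wild type (95% interval -0.08 to 2.43, limma adjusted p = 1). Its second probe set gave 0.02 (SE 0.40), and the brightest one gave 0.67 without untreated wild-type replicate 1. The gap was 0.58 for Sema6d (-0.01 to 1.17), 0.54 for Gpr25 (-0.76 to 1.85) and -0.54 for Dpysl3 (-1.36 to 0.28). Without untreated wild-type replicate 1 it was -0.03 for Gpr25. Gaps were narrower for Sema4d (0.04, -0.18 to 0.26) and Dpysl2 (-0.02, -0.36 to 0.32). Of the 17 probe sets 0 passed in limma for the interaction, as did 0% of 45037, and 0 had an unadjusted p under 0.05, against 2.86% of all. For Fscn1, Gpr25, Dpysl3 and Sema6d the intervals include gaps of more than 2-fold, so 3 arrays per group do not show that the genotypes responded alike.

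Genes with the most similar profiles were found by the root mean square difference over the 12 arrays after each gene's own mean was subtracted; the profiles are dominated by the step between treated and untreated arrays. For Sema6d these were Zbtb46 (0.30), a transcription factor gene of conventional dendritic cells, the receptor gene Gpr84 (0.38), Trp63 (0.39), the NF-kB inhibitor gene Tnfaip3 (0.39) and Parm1 (0.42). The nearest gene to Dpysl3 was Sema6d itself (0.48), followed by Parm1 (0.59), Zbtb46 (0.60), Gpr25 (0.61) and Gpr84 (0.63). Fscn1 lay nearest to Gstt1 (0.50), a glutathione transferase gene, Gpr84 (0.53), Tnfaip3 (0.55), Zbtb46 (0.56) and Gpr25 (0.59). Gpr25 lay nearest to Fscn1 (0.59), Dpysl3 (0.61), Sema6d (0.63), Zbtb46 (0.63) and Gstt1 (0.64). Zbtb46 was thus among the 5 nearest genes for each of the 4 genes with a large step. Its own TNF difference was 3.71 in wild type and 4.09 in Fancc-/-, and like Fscn1 and Gpr25 it had its highest untreated value on wild-type replicate 1 (5.87, against 4.65 to 5.42 on the other 5). The distances for Sema4d (0.03 to 0.04) and Dpysl2 (0.06 to 0.08) are small because these genes hardly varied. Their nearest genes were Trmt112, the L-plastin gene Lcp1, Klhl20, Smg1 and Top2a for Sema4d, and Rest, Rb1, Ciao2b, Sgk3 and Padi2 for Dpysl2.

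Related genes were counted from 8 lists of guidance and cytoskeleton genes that leave out the 6 genes above (208 genes listed, 196 measured). With TNF in wild type 14 of the 196 rose (7.14%) and 6 fell (3.06%), where 2.69% and 2.33% of all genes did (limma, adjusted p under 0.05). In Fancc-/- 9 rose (4.59%) and 2 fell (1.02%), against 2.45% and 1.86% of all genes. Averaged over genotype 25 rose (12.8%) and 13 fell (6.63%), against 5.81% and 6.32%. For the interaction 0 of the 196 and 0% of all genes passed, so a call in 1 genotype only does not show a difference between genotypes. In wild type 9 rose without untreated replicate 2 or treated replicate 3, and 2 fell without untreated replicate 3 or treated replicate 3, or 3 without treated replicate 2. With Xist and Eif2s3y as covariates 7 rose and 2 fell in wild type and 8 rose and 1 fell in Fancc-/-, and the calls named below for Nrp1, Cd72, Fyn, Arhgef12, Ephb4, Marcks, Gpr15, Tubb1, Tubb2b, Tubb6, Stmn4 and, in wild type, Tuba1a did not pass. With cyclic loess 9 rose and 0 fell in Fancc-/-. The fit on only the groups compared lost the calls of Arhgef12, Tubb1, Tubb2b, Tubb6 and Stmn4 in wild type. It also lost those of Marcks and Gpr15 in Fancc-/- and of Gpr35 in both. The differences of the list genes are far smaller than those of the 4 genes picked for their rise, as the plot of lists shows. This gap follows from that choice, and nothing is read from it.

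**Figure D3:**
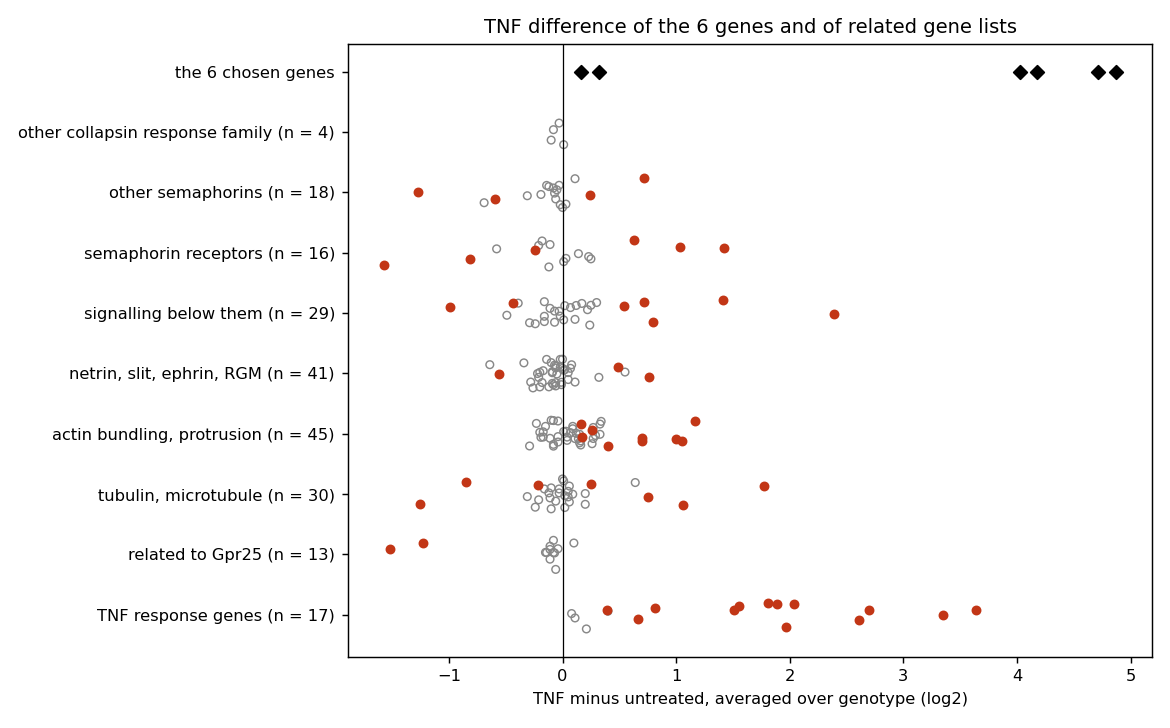
Difference between treated and untreated arrays averaged over genotype (x axis, log2) for the 6 chosen genes (diamonds, not tested) and for the measured genes of 9 lists (y axis); red points passed limma (adjusted p under 0.05) and open points did not. The diamonds of 4 genes lie above 4, and no gene of the 8 guidance and cytoskeleton lists exceeds 2.39.

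Among relatives of the collapsin response genes (Crmp1, Dpysl4, Dpysl5 and Dpys), 0 of 4 passed for TNF in limma in either genotype, and their averaged differences ran from -0.10 to 0.01. Dpysl5 was below the 25th percentile on all 12 arrays. The median over these 4 genes was -0.11 in wild type and -0.02 in Fancc-/-. Within this family Dpysl3 had a large TNF difference, on 1 of its 3 probe sets.

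Of 18 other semaphorin genes, 1 fell and 0 rose in wild type, and 0 passed in Fancc-/-. Sema4a, which encodes a semaphorin of dendritic cells, read 9.36, 9.12 and 9.58 on the wild-type arrays without TNF and 7.72, 8.12 and 7.81 on the treated ones. This was a fall by 1.47 (SE 0.27, adjusted p = 0.0114), which missed the threshold without untreated replicate 3 (adjusted p = 0.0508). In Fancc-/- Sema4a differed by -1.08 (adjusted p = 0.0528). The close relatives of Sema6d read much the same with and without TNF for Sema6a (-0.12 averaged over genotype) and Sema6c (0.00), while Sema6b fell by 0.59 averaged over genotype (adjusted p = 0.00808). Averaged over genotype 2 of the 18 rose, Sema7a by 0.72 (adjusted p = 0.0203) and Sema4b by 0.24 (adjusted p = 0.027), and 2 fell, Sema4a and Sema6b.

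Among 16 semaphorin receptor genes, 2 rose and 1 fell in wild type, and 1 rose in Fancc-/-. Averaged over genotype 3 rose and 3 fell. Plxnc1, which encodes the plexin for Sema7a, rose by 0.94 in wild type (SE 0.12, adjusted p = 0.00132) and by 1.11 in Fancc-/- (SE 0.12, adjusted p = 0.000473). Cd72, a receptor for Sema4d, rose by 0.70 in wild type (adjusted p = 0.0205) and differed by 0.57 in Fancc-/- (adjusted p = 0.0567). Nrp1, a co-receptor for secreted semaphorins, fell by 1.90 in wild type (adjusted p = 0.0209) and differed by -1.23 in Fancc-/- (adjusted p = 0.129). The other neuropilin gene, Nrp2, differed by 1.27 in wild type (adjusted p = 0.14) and 1.57 in Fancc-/- (adjusted p = 0.0751), and rose by 1.42 averaged over genotype (adjusted p = 0.0122). The Cd72 call was lost when untreated replicate 1 or 2 or treated replicate 2 or 3 was left out (adjusted p 0.0587 to 0.0873), and the Nrp1 call when replicate 2 or 3, treated or untreated, was left out (0.0676 to 0.089). The plexin genes for Sema6d and Sema4d, Plxna1 (0.25 averaged over genotype) and Plxnb1 (0.14), did not pass. Besides Nrp1, the genes of this list that fell averaged over genotype were Tyrobp (-0.81, limma adjusted p = 0.0131) and Plxna4 (-0.24, limma adjusted p = 0.0371).

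Of 29 genes that act below semaphorin receptors, 4 rose and 0 fell in wild type, and 3 rose and 0 fell in Fancc-/-. Averaged over genotype 5 rose and 2 fell. Those that fell were Rnd3 (-0.99, limma adjusted p = 0.0293) and Tiam1 (-0.44, limma adjusted p = 0.0278). Rnd1, whose product binds plexins, rose by 2.67 in wild type (SE 0.21, adjusted p = 6.3e-05) and by 2.11 in Fancc-/- (adjusted p = 0.000265). Rras, a GTPase gene whose product is a target of the plexin GAP domain, rose by 1.45 (adjusted p = 0.000198) and 1.37 (adjusted p = 0.000303). Rras2 rose by 1.03 in wild type (adjusted p = 0.00906) and differed by 0.56 in Fancc-/- (adjusted p = 0.131). The kinase gene Fyn rose by 0.66 in Fancc-/- (adjusted p = 0.00999) and differed by 0.43 in wild type (adjusted p = 0.0636). Arhgef12, a guanine nucleotide exchange factor gene, rose by 0.91 in wild type (adjusted p = 0.0198) and differed by 0.53 in Fancc-/- (adjusted p = 0.171). Its wild-type call was lost when untreated replicate 2 or 3 or treated replicate 1 or 3 was left out (from 0.0633 to 0.0708).

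Among 41 genes of the netrin, slit, ephrin and repulsive guidance families, 1 rose in wild type, the ephrin receptor gene Ephb4 by 0.92 (adjusted p = 0.0114), and 0 fell. None passed in Fancc-/- in limma, where Ephb4 differed by 0.61 (adjusted p = 0.0807). Averaged over genotype 2 of the 41 rose and 1 fell. Medians were -0.06 in each genotype.

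Of 45 genes for actin bundling and cell protrusions, 4 rose and 0 fell in each genotype, and 9 rose and 0 fell averaged over genotype. The 4 called in each genotype were Myo10, a filopodial myosin gene (1.04 in wild type and 1.06 in Fancc-/-), the formin gene Fmnl2 (1.09 and 0.92), and Marcks (1.06 and 1.28) and Marcksl1 (0.71 and 0.68), which encode actin-binding substrates of protein kinase C. Adjusted p ran from 0.000509 to 0.0278. Marcks in wild type did not pass without any 1 of untreated replicates 1 to 3 or treated replicates 2 and 3 (adjusted p from 0.0553 to 0.112). The other fascin genes, Fscn2 (0.04 averaged over genotype) and Fscn3 (-0.19), did not pass, and the list's median was 0.10 and 0.15.

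Of 30 tubulin and microtubule genes, 3 rose and 2 fell in wild type, and 1 rose in Fancc-/-. Averaged over genotype 4 rose and 3 fell. Tuba1a, an alpha-tubulin gene, rose in both genotypes, by 0.76 (adjusted p = 0.005) and 0.74 (adjusted p = 0.00636). In wild type the beta-tubulin genes Tubb1 (2.01) and Tubb2b (1.29) rose, while Tubb6 (-1.56) and the stathmin gene Stmn4 (-0.40) fell, with adjusted p from 0.0259 to 0.04. In Fancc-/- the differences were 1.54 for Tubb1, 0.83 for Tubb2b, -0.94 for Tubb6 and -0.02 for Stmn4 (adjusted p from 0.0878 to 0.941). The 4 wild-type calls were lost when single arrays were left out. Tubb1 did not pass without replicate 2 or 3 of either group, Tubb6 when treated replicate 2 or 3 or untreated replicate 1 or 3 was left out, and Stmn4 without untreated replicate 1 or 2 or any treated replicate (adjusted p from 0.0545 to 0.0986). Tubb2b passed only without untreated replicate 3 or treated replicate 1 of wild type among the 12 arrays left out in turn (otherwise from 0.0529 to 0.151).

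Of 13 receptors and ligands related to Gpr25, 0 rose and 2 fell in each genotype. Gpr15 differed by -1.40 in wild type (adjusted p = 0.0118) and by -1.06 in Fancc-/- (adjusted p = 0.0484), while Gpr35 differed by -1.58 (adjusted p = 0.0312) and -1.46 (adjusted p = 0.0492). The closest relative of Gpr25 thus fell with TNF. In Fancc-/- the Gpr15 call was lost without any array but treated Fancc-/- replicate 3 (adjusted p from 0.0551 to 0.168), and the Gpr35 call without any but untreated wild-type replicates 1 and 3 (from 0.0589 to 0.173). In wild type the Gpr35 call was lost when any treated replicate, or untreated replicate 2 or 3, was left out (from 0.0616 to 0.104).

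For comparison, 12 of 17 known TNF response genes rose in each genotype and 0 fell, with a median of 1.58 in wild type and 1.51 in Fancc-/-, where the median of all genes was -0.03 in each.

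Some markers of dendritic cells rose with TNF, as a minority of each list. The mean over 10 mature dendritic cell markers was 5.49 to 5.65 on the 6 untreated arrays and 5.86 to 6.42 on the 6 treated ones, with no overlap, and the median difference of the 10 was 0.34 in wild type and 0.26 in Fancc-/-. Of these 10 markers, 2 rose in wild type (Cd83 and Slco5a1) and 4 in Fancc-/- (Ccr7, Cd83, Cd200 and Slco5a1), named here after their values were seen. Cd83 rose by 2.57 (adjusted p = 0.000671) and 1.90 (adjusted p = 0.0047). Other defining markers did not pass in limma: Ccl22 was below the 25th percentile on 9 of 12 arrays, and Ccl17 and Il12b read 5.58 to 6.23 and 5.13 to 5.44 with and without TNF. Cd86 differed by -0.56 in wild type and -0.35 in Fancc-/-, Cd80 by 0.23 and 0.32, and Socs2 by 0.46 and 0.20. The wild-type call of Slco5a1 was lost when any treated replicate, or untreated replicate 1 or 2, was left out (adjusted p 0.051 to 0.125), and its Fancc-/- call without treated replicate 2 (0.0508). The Ccr7 call was lost when untreated Fancc-/- replicate 1 or 3, or any treated one, was left out (0.0575 to 0.0862).

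The mean over 8 conventional dendritic cell markers was 6.79 to 7.05 without TNF and 7.40 to 7.89 with it, but the median difference of the 8 was 0.19 in wild type and 0.27 in Fancc-/-. Zbtb46 (3.71 and 4.09) and Dpp4 (1.56 and 1.82) rose in both genotypes. Siglech, which the list holds although it marks plasmacytoid dendritic cells, rose in Fancc-/-, while Xcr1 and Cd209a were below the 25th percentile on all 12 arrays and Itgax differed by -0.40 in wild type and 0.22 in Fancc-/-, neither past the threshold. Siglech (adjusted p = 0.0466) passed in only 3 of the 12 fits that left out an array, without untreated Fancc-/- replicate 3 or treated wild-type replicate 1 or 2 (otherwise from 0.052 to 0.17). Granulocyte markers moved the opposite way, with a mean over 10 genes of 7.83 to 8.96 on the treated wild-type arrays and 8.70 to 9.75 on the treated Fancc-/- ones. Of these 10 markers, 7 fell in wild type and 4 in Fancc-/- (Elane, Prtn3, Ltf and Cxcr2). In wild type the calls of Elane and Prtn3 were lost when replicate 2 or 3, treated or untreated, was left out, and that of Camp when treated replicate 2 or any untreated replicate was (adjusted p 0.0561 to 0.0987). In Fancc-/- those of Elane and Prtn3 were lost when treated replicate 2 or 3 or any untreated replicate was left out, and that of Prtn3 also without wild-type untreated replicate 2 or 3 or treated replicate 3 (0.0609 to 0.13). Among 10 macrophage markers Mrc1 fell by 1.76 in wild type (adjusted p = 0.0137), a call lost in the fit on only the groups compared, and among 9 T and NK cell markers Nkg7 fell in both genotypes. That fit also lost the calls of Ngp, Elane and Camp in wild type and of Prtn3 and Siglech in Fancc-/-. In limma 0 of 8 KSL, 0 of 5 B cell and 0 of 10 stroma markers passed in either genotype. With Xist and Eif2s3y as covariates the calls of Dpp4, Slco5a1, Mrc1 and Camp in wild type, of Ccr7 and Siglech in Fancc-/-, and of Elane and Prtn3 in both did not pass. The mean over 11 markers of neurons and glia, where semaphorins and collapsin response proteins are best known, was 5.56 to 5.74 on all 12 arrays and 0 of the 11 passed in limma in either genotype. The part of these shifts in the differences of the 4 genes was not tested.

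**Figure D4:**
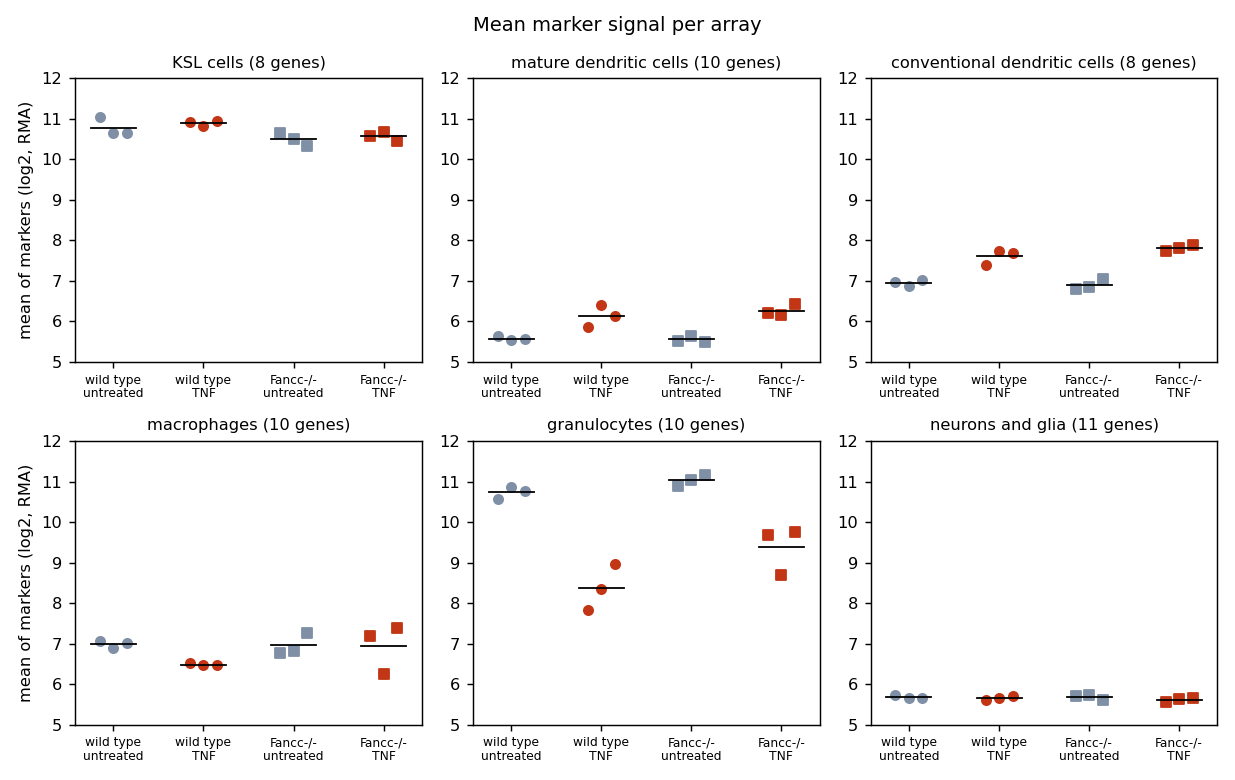
Mean log2 RMA signal of each marker list (y axis) on the 12 arrays by genotype and treatment (x axis; grey-blue untreated, red TNF, circles wild type, squares Fancc-/-); points are arrays and lines are group means of 3 arrays. Both dendritic lists lie higher and the granulocyte list lower on all 6 treated arrays, while the neuron and glia list stays between 5.56 and 5.74.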

How the data were processed

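RNA of 12 samples was amplified from 5 to 15 ng and hybridised to Affymetrix mouse genome arrays, 1 array per sample. The authors deposited log2 signals per probe set, which the submitters' processing notes credit to RMA with no version. The log2 base follows from the range of the values, 2.14 to 14.94. RMA equalises the arrays' distributions, and arrays give no read depth, so the number of arrays limits the precision.

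Of 45101 probe sets, 64 controls were left out. The platform annotation gave 1 symbol to 34945 of the rest, several to 932 and none to 9160. A gene was represented by its single-symbol probe set with the highest mean over the 12 arrays, which left 18193 genes. As that mean includes the treated arrays, the choice can favour probe sets that read higher with TNF, as for Dpysl3. limma 3.58.1 (R 4.3.3; lmFit and eBayes) fitted 4 group means, with Benjamini-Hochberg adjustment over all genes and a threshold of 0.05, 2-sided. The script was tested on simulated data. From each list of related genes, those called in either genotype were named, at most 6 by size of the averaged difference; a few relatives that did not pass and marker genes were named after their values were seen. Members and lists were chosen with earlier results of these data known. Alternatives changed the block, filter, gene summary, scaling, moderation, weights, samples and covariates, and left out each array. Promoter sequences are RefSeq's (GRCm38.p6).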

Additional observations from a re-analysis of the deposited data

How the results depend on the processing

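Under all 22 alternatives 4 of the 6 genes were at least 2-fold higher with TNF in both genotypes. Under the 21 that give a genotype average or an interaction, 0 of the 6 passed either in limma. The fit on only the groups compared gives neither. No single gene's called value changed sign. Counts of genes called for TNF moved more. With Xist and Eif2s3y as covariates, 7 guidance and cytoskeleton genes rose and 2 fell in wild type, 1 fell in Fancc-/-, and 15 rose and 6 fell averaged over genotype. Over the whole table these covariates gave 248 higher and 162 lower in wild type, 274 and 178 in Fancc-/-, and 664 and 606 averaged. The fit on only the groups compared gave 302 higher and 221 lower genes in wild type, and 1 lower guidance gene in Fancc-/-. Trended and robust moderation gave 14 higher and 4 lower guidance genes in Fancc-/-. The lower count there was 4 with the mean of probe sets, and 0 with all probe sets tested one by one or with cyclic loess. Testing all probe sets gave 1710 higher averaged over genotype, which counts probe sets out of 45037 and cannot be set beside counts of genes. Array weights gave 539 lower genes in Fancc-/-. The cause of these shifts was not tested.

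Leaving out each array in turn gave 9 to 15 higher and 2 to 9 lower guidance genes in wild type, 9 to 11 and 0 to 2 in Fancc-/-, and 17 to 23 and 9 to 15 averaged. Over the whole table it gave 287 to 519 higher and 187 to 460 lower in wild type, 282 to 529 and 162 to 422 in Fancc-/-, and 836 to 1126 and 762 to 1099 averaged. The main fit did not pair samples by replicate number. Of 18 same-numbered pairs, 7 had a correlation of deviations over 0.1 (range -0.16 to 0.28), which neither shows nor excludes pairing. With the replicate block, 16 guidance genes rose and 8 fell in wild type, 10 and 3 in Fancc-/-, and 23 and 13 averaged. Values below the 25th percentile of an array, such as untreated Dpysl3, limit how far a fold can be read.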
